A study of Mus musculus with 4 samples.

Results

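Fibroblasts of the brain's coverings were followed by position and age in coronal sections of mouse forebrain that hold the striatum of both hemispheres. A cell was taken as a fibroblast when at least 2 of Aldh1a2, Aox3, Mgp and Inmt were detected in it, when these 4 genes together gave at least 4 transcripts and at least 2% of the cell's transcripts, and when both the sum of Mrc1, Pf4 and Ms4a7 (border macrophage genes) and the sum of Acta2 and Myl9 (smooth muscle genes) stayed below theirs. The members were thus chosen by their measured counts of these 9 genes. The rule took 1904 of 281824 kept cells, or 0.676%. Kept cells had at least 10 of the 383 measured genes detected and a volume of at least 50 µm³, out of 320663 segmented cells. The transcripts were counted in place by MERFISH, a multiplexed form of fluorescence in situ hybridization in which each RNA species is read from a barcode built up over rounds of imaging. The groups were Young, 2 sections from mice of 2 months, and Aged, 2 sections from mice of 18 months, with the section as the replicate. All groups were C57BL/6NTac mice, and the labels name no allele or treatment. The methods call the replicates biological, but the labels name no animal for a section, so the p-values below measure the spread between these sections.

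The meninges that wrap the brain hold fibroblasts in layers, and the innermost, the pia, lies against a limiting membrane made by astrocyte endfeet. From the pia, fibroblasts follow arteries and large veins into the tissue, where they sit in the space around the vessel wall. They are known for laying down matrix and, in the meninges, for making retinoic acid. Aldh1a2 makes retinoic acid from retinal, Aox3 is an aldehyde oxidase, Mgp is a matrix protein that restrains calcification, and Inmt is an N-methyltransferase. In the GRCm38.p6 assembly, Aldh1a2 lies on chromosome 9 (71215789 to 71296243), Aox3 on chromosome 1 (58113135 to 58202221), Mgp on chromosome 6 (136872435 to 136875823) and Inmt on chromosome 6 (55170627 to 55174990). Another marker of these cells, Slc7a11, was not used by the rule; it encodes the cystine and glutamate exchanger and lies on chromosome 3 (50364936 to 50499087).

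The 4 sections held 68011, 70774, 68415 and 74624 kept cells in the order Young 1, Young 2, Aged 1, Aged 2, and no cell identifier was shared between sections. Their depth differed, with a median of 400, 325, 215 and 293 transcripts per kept cell, so that Aged 1 was the shallowest. The fibroblasts numbered 514, 457, 383 and 550 and had medians of 282, 264, 195 and 234 transcripts. Levels are given as transcripts per 10000 transcripts of the 374 genes that the rule did not use, summed over the cells of a section, and they are compared between cells or sections for the same gene only, since the efficiency of probes differs between genes.

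The gate's own genes describe the cells it took and carry no test. Aldh1a2 was detected in 94.6%, 97.2%, 94.0% and 96.0% of the fibroblasts, Aox3 in 81.9%, 73.3%, 81.98% and 72.0%, and Mgp in 60.5%, 61.7%, 52.2% and 62.4%. Inmt was detected in 25.7%, 16.8%, 23.5% and 25.3%, the lowest shares of the 4 genes in every section. The median sum of the 4 genes was 9.5, 9, 7 and 8 transcripts per cell. At the threshold, 45, 52, 64 and 69 cells had a sum of exactly 4, and 42, 40, 64 and 61 cells met the rest of the rule with a sum of 3. The cells just inside carried 4.71, 5.25, 6.95 and 4.30 Slc7a11 transcripts per cell, those just outside 3.45, 3.50, 3.95 and 3.74. These counts are not scaled by depth, which was unlike, with medians of 126, 141, 126.5 and 128 transcripts inside and 103, 113, 96 and 89 outside. Near the border of the section lay 73.3% to 88.5% of the cells just inside and 75.4% to 90.0% of those just outside.

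Slc7a11 stood at a level of 408, 485, 517 and 420 in the fibroblasts and at 10.03, 11.2, 13.4 and 11.9 in all other kept cells. It was detected in 94.1% to 95.3% of the fibroblasts and was 39.4-fold higher in them on average (range over sections 35.2 to 43.3). Of the 374 genes outside the rule, 81 were at least 2-fold higher in the fibroblasts in every section and 93 at least 2-fold lower. Among the genes with the next largest mean folds were Gfap (17.9), the intermediate filament of astrocytes, Cp (17.6), the ferroxidase ceruloplasmin, Fn1 (16.9), the matrix protein fibronectin, and Ahnak (16.6), a large scaffold protein. Others were Cd74 (15.97), the invariant chain of MHC class II, Timp3 (14.3), a matrix-bound inhibitor of metalloproteases, Cxcl12 (12.9), a chemokine, and Itih5 (12.7), which binds hyaluronan. These folds describe the gated cells against a brain made mostly of neurons and glia. Against other kept cells near the border they were smaller, at 6.74 on average for Slc7a11 (range 5.03 to 8.48), 5.03 for Fn1, 4.82 for Cxcl12, 4.43 for Cp and 2.61 for Gfap.

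Genes known from astrocytes were also detected in the fibroblasts. The summed level of 4 astrocyte markers (Aqp4, Gja1, Slc6a11 and Plpp3) was 445 to 492 in the fibroblasts, against 159 to 190.1 in all other kept cells and 343 to 484 in other kept cells near the border. Gja1, the gap junction protein connexin, made up most of it at 243 to 284, with the water channel gene Aqp4 at 87.1 to 137 and Slc6a11, the GABA transporter of parenchymal astrocytes, at 20.2 to 26.4, below the 40.9 to 50.1 of the other kept cells. Gfap stood at 343 to 460. In 1218 of the 1904 fibroblasts, Gfap, Aqp4, Gja1 and Slc6a11 together gave more transcripts than the 4 genes of the rule. By a wider measure, 1556 of the 1904 were mixed cells, in which at least 3 markers of 1 other cell type were detected and their transcripts outnumbered those of the 4 genes. The types checked were oligodendrocytes, astrocytes, neurons, endothelial cells and microglia, and pericytes were not among them. Without mixed cells 75, 74, 84 and 115 fibroblasts were left in Young 1, Young 2, Aged 1 and Aged 2. Markers of neurons (6 genes) summed to 58.2 to 81.1 against 1271 to 1377 in the other cells, markers of endothelial cells (6 genes) to 147 to 186 against 64.4 to 74.1, and markers of oligodendrocytes (5 genes) to 45.4 to 51.7 against 143 to 188. Markers of pericytes (4 genes) summed to 274 to 308 in the fibroblasts against 47.5 to 55.5 in the other cells. None of these markers was at 0 in the fibroblasts of any section. The part that transcripts of neighbouring cells had in these levels was not tested, and the name fibroblast stands below for the cells that met the rule.

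**Figure D1:**
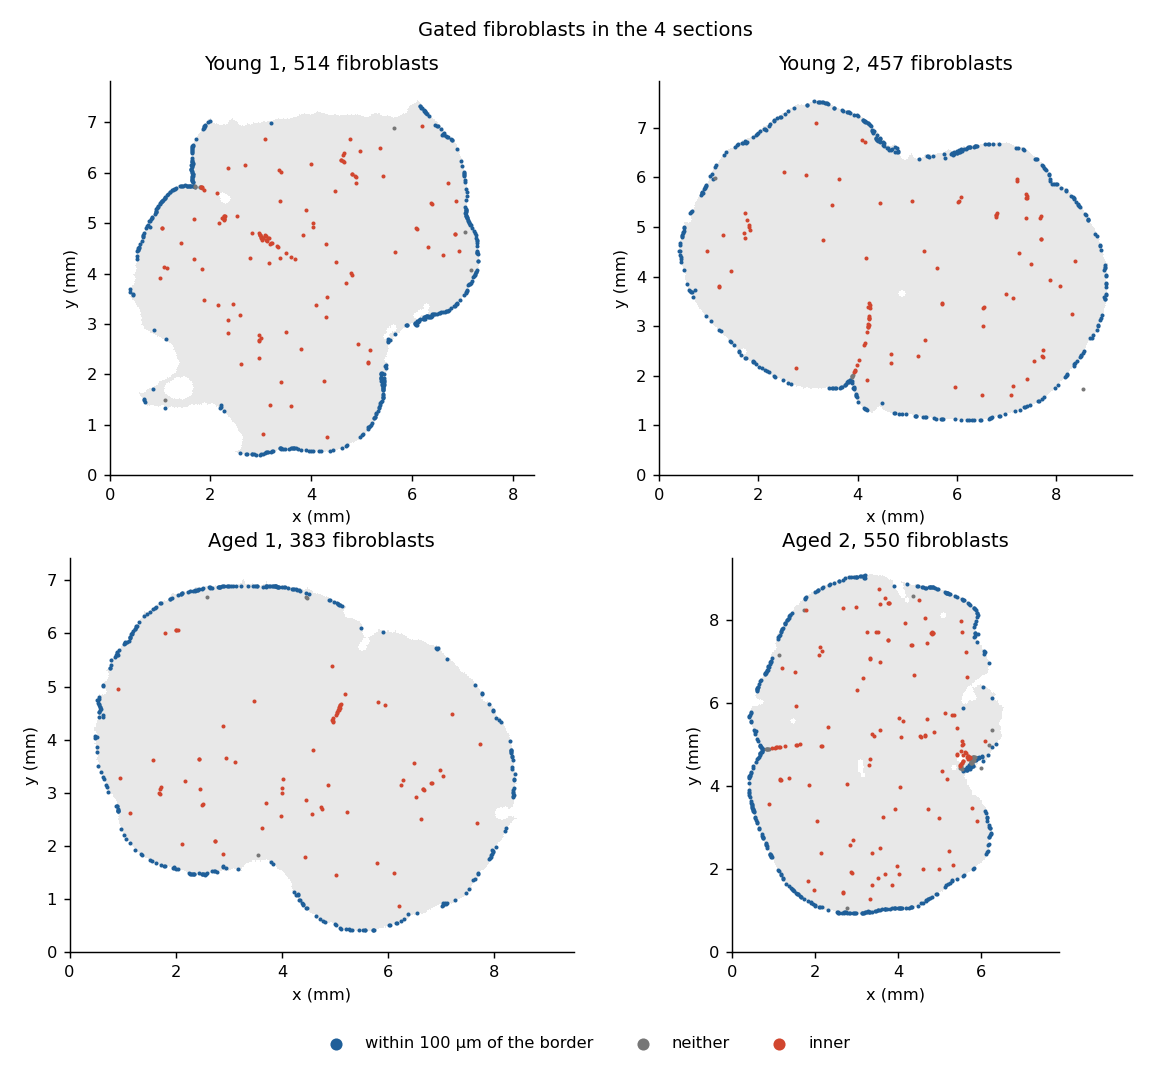
Position of the fibroblasts in the 4 sections, with both axes in mm and the tissue outline in grey. Blue points lie within 100 µm of the outer border, red points are inner cells (over 200 µm from the border and over 100 µm from an enclosed hole) and grey points are neither; the blue points follow the border of all 4 sections.

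Most fibroblasts lay at the border of the section. Within 100 µm of the outer border lay 380 of 514 fibroblasts in Young 1, 359 of 456 in Young 2, 301 of 383 in Aged 1 and 381 of 549 in Aged 2, after leaving out 2 cells that fell off the outline. These were 73.9%, 78.7%, 78.6% and 69.4% of the fibroblasts, against 5.96%, 5.23%, 5.38% and 6.40% of the other kept cells. The mean difference was 69.4 percentage points (75.2% ± 4.44 against 5.74% ± 0.540, SD, n = 4 sections) and had the same sign in 4 of 4 sections. The exact sign-flip test over the 4 sections gave p = 0.125, two-sided, the smallest p that 4 pairs allow. The median fibroblast lay 10 µm from the border in each section, which is the outermost of the 20-µm squares in which position was measured, whereas the median of the other cells was 901 to 1023 µm. The step was steep: 65.2% to 76.5% of the fibroblasts were within 50 µm, 2.09% to 4.67% between 50 and 100 µm, and 1.04% to 6.38% between 100 and 200 µm.

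Other cells of the vessel wall and the coverings were also found at the border, in smaller shares. Smooth muscle cells (a sum of Acta2 and Myl9 that met the same thresholds) lay near it in 21.7%, 31.2%, 23.01% and 19.4% of cases, border macrophages in 25.0%, 26.7%, 41.3% and 50%, and endothelial cells in 8.62% to 10.5%. The fibroblast share was above each of them in 4 of 4 sections, by 51.3, 39.4 and 65.7 percentage points on average (exact sign-flip tests, p = 0.125 each and 0.125 after Benjamini-Hochberg adjustment over 7 comparisons of position). The macrophage shares rest on 56, 86, 47 and 44 gated cells, of which 1 in Aged 1 lay off the outline. A fibroblast stood within 100 µm of 62.0%, 86.9%, 72.4% and 72.1% of the border's length. In Young 1, the section with the lowest coverage, the long upper side of the outline as plotted carried almost no fibroblasts.

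**Figure D2:**
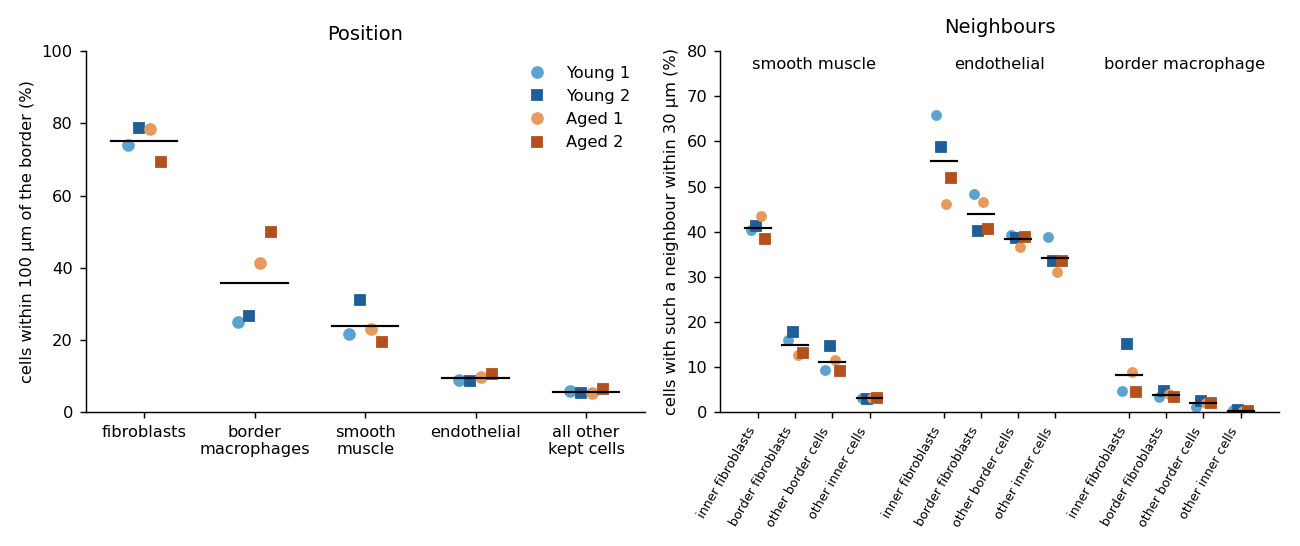
Left, the percentage of cells within 100 µm of the outer border for 5 kinds of cell; right, the percentage of inner and border cells with a smooth muscle, endothelial or border macrophage cell within 30 µm. Points are the 4 sections and lines their means; the fibroblast points (69.4% to 78.7%) lie above those of all other kinds on the left, and inner fibroblasts have the highest share with a smooth muscle cell nearby (38.3% to 43.6%) on the right.

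Away from the border, 126, 92, 78 and 133 fibroblasts were inner cells, over 200 µm from the border and over 100 µm from an enclosed hole, and 208 of these 429 had no other fibroblast within 100 µm. Some inner cells stood in rows, such as the one that runs in from the border in Young 2, and the rest were scattered. Inner fibroblasts had a smooth muscle cell within 30 µm in 40.5%, 41.3%, 43.6% and 38.3% of cases. The shares among other inner cells were 3.23%, 2.93%, 3.18% and 3.19%, so the groups did not overlap (mean difference 37.8 percentage points, higher in 4 of 4 sections, exact sign-flip test p = 0.125). The share was alike in isolated inner fibroblasts, at 40.9% to 43.9%, and lower in border fibroblasts, at 12.6% to 17.8% (mean difference to inner ones 26.0 points, 4 of 4 sections, exact p = 0.125).

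An endothelial cell was within 30 µm of 65.9%, 58.7%, 46.2% and 51.9% of the inner fibroblasts and of 38.8%, 33.5%, 31.1% and 33.6% of the other inner cells (mean difference 21.4 points, 4 of 4 sections, exact sign-flip p = 0.125). Young 1 was high in both. Within 50 µm, 74.0% of inner fibroblasts and 69.5% of other inner cells had an endothelial neighbour, a mean difference of 4.47 points (exact p = 0.25), and in Aged 2 the inner fibroblasts were not above the others (68.42% against 68.49%). Border macrophages stood within 30 µm of 4.76%, 15.2%, 8.97% and 4.51% of the inner fibroblasts, against 0.203% to 0.461% of the other inner cells (mean difference 8.03 points, 4 of 4 sections, exact p = 0.125); these shares rest on 6, 14, 7 and 6 fibroblasts. Another fibroblast was within 30 µm of 63.8% to 76.6% of the border fibroblasts and 30.4% to 38.1% of the inner ones.

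Border and inner fibroblasts differed in the genes that had chosen them. Inmt stood at 8.23, 2.43, 5.78 and 5.45 at the border and at 81.6, 55.2, 63.9 and 78.3 inside, with no overlap. Aox3 was also higher inside in every section (78.2, 59.9, 91.2 and 54.6 against 115, 90.7, 111 and 77.6). Mgp went the other way (84.4, 82.8, 66.7 and 109 at the border against 32.0, 44.2, 45.9 and 54.1 inside), as did Aldh1a2 (178, 221, 206 and 178 against 127, 144, 150 and 150). Since the cells were gated on the sum of these 4 genes, a cell low in some had to be higher in others, and no test is given. Slc7a11, outside the gate, stood at 392, 475, 567 and 433 at the border and at 459, 503, 361 and 388 inside, and did not pass the test of position (log2 difference 0.32 ± 0.15 SE, edgeR adjusted p = 0.103). By these levels, which are not scaled by TMM as the tests are, the border was lower in both young sections and higher in both aged ones. The test of that change with age by position gave an edgeR adjusted p of 0.309.

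**Figure D3:**
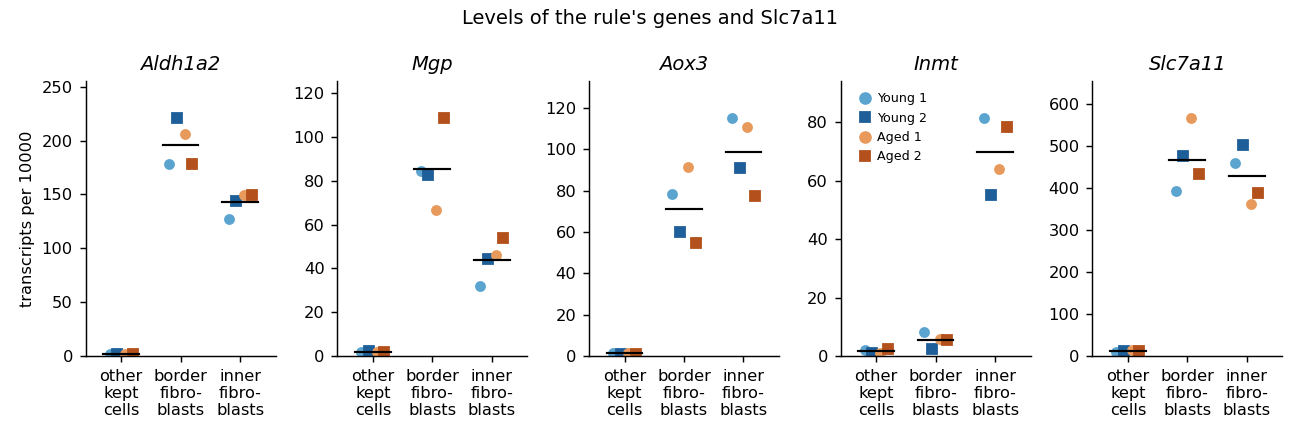
Levels in transcripts per 10000 of the 4 genes of the rule and of Slc7a11 in all other kept cells, border fibroblasts and inner fibroblasts; points are the 4 sections and lines their means. The cells were chosen by the 4 genes of the rule, so the height of these over the other kept cells is set by the rule. Within the gated cells, Inmt is far higher inside (55.2 to 81.6) than at the border (2.43 to 8.23).

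Among genes the rule did not use, a large part of the panel differed with position. With section as a block, 144 of the 295 genes tested passed an adjusted p under 0.05 in edgeR's quasi-likelihood test (48.8%), with 69 higher at the border (23.4%) and 75 lower (25.4%). Without scaling by TMM the split was 57 higher and 95 lower, because the median gene then moved by -0.20 on the log2 scale. The difference had the same sign in all 4 sections for 60 of the 69 and for 73 of the 75. Inner fibroblasts held more transcripts than border ones (medians of 334, 371, 210 and 258 against 280, 249, 192 and 228).

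Cldn11 and Tspan13 were higher in border fibroblasts without a like difference in other cells. Cldn11, a tight junction protein of myelin and of the arachnoid barrier, stood at 33.3, 33.1, 25.8 and 34.6 at the border and at 3.51, 7.15, 1.06 and 3.46 inside, a log2 difference of 3.21 ± 0.24 (SE, edgeR adjusted p = 1.94e-07). In other kept cells it was lower at the border than inside, by 0.54 on the log2 scale of mean levels. Tspan13, a tetraspanin, stood at 87.3, 80.1, 55.0 and 82.5 against 19.7, 17.9, 17.4 and 15.6 (2.31 ± 0.16, edgeR adjusted p = 1.21e-07). In other cells it differed by 0.12, beside a median of 0.44 over all genes tested. For both genes the border and inner sections did not overlap.

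The other genes of this group had higher mean levels at the border in the remaining cells as well. Gfap stood at 513, 602, 546 and 428 at the border and at 74.8, 70.6, 99.8 and 161 inside (log2 difference 2.62 ± 0.21, edgeR adjusted p = 3.08e-07), while other kept cells differed by 3.71. Nnat, an imprinted membrane protein, stood at 109, 108, 60.8 and 83.4 against 48.7, 14.0, 9.50 and 21.0 (2.26 ± 0.25). Cd74 stood at 11.03, 21.6, 15.5 and 26.7 against 3.73, 6.32, 3.70 and 7.41 (1.99 ± 0.19), and Fxyd5, a regulator of the sodium pump, at 24.3, 22.5, 11.9 and 29.4 against 4.61, 6.60, 6.86 and 8.64 (1.98 ± 0.22). Their adjusted p-values in edgeR were 4.15e-06, 1.73e-06 and 3.92e-06, and the border sections lay above the inner ones for each. Fabp7, a fatty acid binding protein (2.09 ± 0.25), and C1ql1, a secreted C1q-like protein (2.73 ± 0.53), were low in level, with at most 19.6 and 4.26 at the border.

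Among the genes higher inside by most were several known from blood vessels. Il33, an alarmin cytokine, stood at 24.8, 32.2, 34.8 and 22.2 inside and at 3.56, 2.13, 1.41 and 4.81 at the border, a log2 difference of -3.004 ± 0.30 (SE, edgeR adjusted p = 2.16e-06). Bmx, a kinase of arterial endothelium, stood at 16.01, 15.94, 16.9 and 15.3 inside and at 2.37, 1.52, 2.34 and 3.31 at the border (-2.56 ± 0.25, adjusted p = 2.03e-06). Sox18, an endothelial transcription factor, stood at 16.01, 13.7, 7.92 and 21.0 against 2.46, 2.03, 2.499 and 2.14 (-2.49 ± 0.27). Col4a2, a basement membrane collagen, stood at 16.5, 19.0, 11.6 and 14.3 against 4.33, 2.43, 1.09 and 1.92 (-2.47 ± 0.26). Inner sections lay above border sections for all 4 genes.

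Sema3g (-2.64 ± 0.36), a semaphorin, Edn1 (-2.34 ± 0.27), the vasoconstrictor endothelin, Trf (-2.33 ± 0.16), transferrin, and Ly6a (-2.32 ± 0.26), a surface antigen of endothelium, were likewise higher inside in 4 of 4 sections. In other kept cells, 6 of these 8 inner genes were higher at the border, by 0.45 to 1.33, and Il33 and Trf lower, by 0.60 and 0.53. These values are not scaled by TMM, and the median of all genes tested was itself 0.44 higher at the border in the other cells. Over all 75 genes that were lower in border fibroblasts, 57 were higher at the border in the other cells (76%), and over the 69 that were higher, 57 (82.6%), beside 205 of all 295 genes tested (69.5%). The summed level of the 6 endothelial markers was 306 to 438 in inner and 87.3 to 110 in border fibroblasts, and all 6 were called lower at the border. The summed pericyte markers were 464 to 606 inside and 174 to 249 at the border; Pdgfrb, Rgs5 and Vtn were called lower at the border and Cald1 higher. The 4 astrocyte markers above summed to 311 to 378 inside and 486 to 539 at the border, with Aqp4 and Gja1 called higher at the border, Slc6a11 lower and Plpp3 in neither direction. The part of endothelial, pericyte and astrocyte transcripts in the differences by position was not tested.

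**Figure D4:**
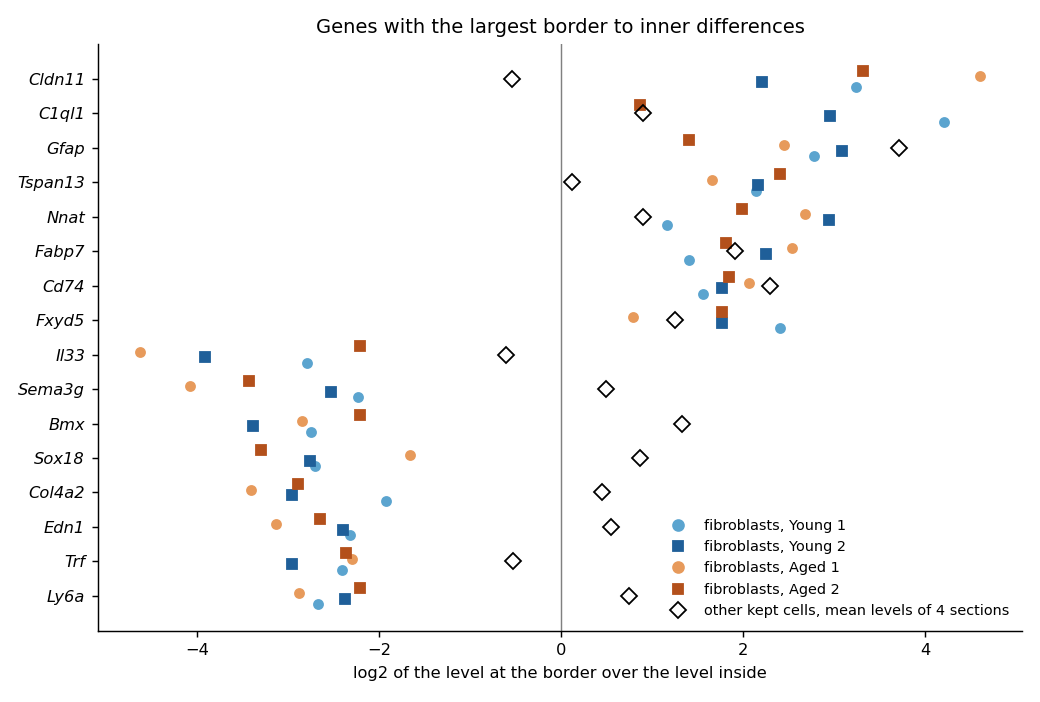
Log2 ratio of the level in border fibroblasts to that in inner fibroblasts for the 8 genes with the largest called difference in each direction. Filled points are the 4 sections (1 point is not drawn, C1ql1 in Aged 1, where it was at 0 inside) and open diamonds are all other kept cells. All drawn points of the upper 8 genes lie above 0 and all points of the lower 8 below it. The diamonds of Sema3g, Bmx, Sox18, Col4a2, Edn1 and Ly6a lie above 0, as does the median of all genes tested in those other cells (0.44).

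Of the 12 fibroblast genes outside the rule, 3 were higher at the border, 5 lower and 4 did not pass the test (over all genes tested, 23.4% were higher and 25.4% lower), with a median log2 difference of -0.05 beside 0.00 over all genes tested. Fn1 stood at 178, 167, 144 and 161 at the border and at 71.3, 60.2, 56.0 and 60.3 inside (1.59 ± 0.13, edgeR adjusted p = 3.08e-07), and Igfbp5, an IGF binding protein, was also higher at the border (1.42 ± 0.16). Itih5 stood at 72.9, 44.1, 41.9 and 48.3 at the border and at 287, 234, 236 and 202 inside (-2.04 ± 0.14, edgeR adjusted p = 1.21e-07). Pdgfra, a receptor of fibroblasts and of oligodendrocyte precursors, stood at 23.8, 21.6, 21.4 and 16.6 against 82.9, 102, 66.5 and 65.2 (-1.73 ± 0.14). Pdgfrb (-1.34 ± 0.16), a receptor of mural cells, Cp (-0.62 ± 0.13) and Mmp2 (-2.01 ± 0.29), a gelatinase, were lower at the border too, all without overlap of the sections. Cxcl12 (151, 160, 154 and 145 at the border, 177, 216, 162 and 169 inside; -0.05 ± 0.12) and Vim (-0.06 ± 0.13), an intermediate filament, gave adjusted p of 0.802 and 0.763.

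In the matrix and protease list, 6 of 11 tested members were lower at the border and 2 higher, with a median of -1.53, beside 25.4% lower and 23.4% higher over all genes tested. Besides Itih5, Mmp2 and Col4a2, the lower members were Vtn (-1.53 ± 0.17), vitronectin, Vwa1 (-2.24 ± 0.19), a matrix protein of basement membranes, and Itih3 (-1.95 ± 0.32), and the higher ones Fn1 and Timp3 (0.46 ± 0.12). Without TMM 7 were lower and 1 higher. Of the 15 tested growth factors, chemokines and receptors, 7 were lower at the border and 3 higher, namely Igfbp5, Egfr (1.94 ± 0.19), the receptor of EGF, and Fgf2 (0.91 ± 0.21). Of the 12 solute carriers tested, 5 were lower and 3 higher, the latter near the share over all genes. They were Slc16a1 (1.47 ± 0.17), a lactate carrier, Slc38a1 (1.65 ± 0.18), a glutamine carrier, and Stra6 (1.56 ± 0.37), the receptor for retinol binding protein, at a level of 3.74 to 7.97 at the border and 0.550 to 3.51 inside.

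None of the 7 tested complement and acute phase genes was higher at the border and 5 were lower, beside the same 23.4% and 25.4% over all genes tested. Pltp, a phospholipid transfer protein, stood at 49.6, 32.7, 34.2 and 28.9 at the border and at 194, 160, 183 and 133 inside (-2.02 ± 0.13, edgeR adjusted p = 1.04e-07), and Apoe (-0.46 ± 0.13), Clu (-0.70 ± 0.13), Trf and Cp were the others. In the MHC and interferon list, 5 of 18 were higher at the border, among them the class II genes Cd74, H2-Ab1 (1.38 ± 0.38) and H2-Eb1 (1.81 ± 0.41), and 3 were lower, Ly6e (-1.22 ± 0.13), Slfn5 (-0.49 ± 0.15) and the class I gene H2-K1 (-0.59 ± 0.16). Of 9 inflammatory genes, Il18 (0.91 ± 0.19) was higher, and Il33, Vcam1 (-0.63 ± 0.13), an adhesion molecule, and Rela (-0.60 ± 0.18), an NF-κB subunit, were lower; without TMM 6 were lower. Of 4 cell cycle genes tested, Ccnd2 (0.51 ± 0.18) and the inhibitor Cdkn1c (0.59 ± 0.20) were higher, and without TMM neither passed. Cytoskeletal genes counted 2 higher and 1 lower of 9, and redox genes 2 higher and 1 lower of 7, and the counts of these lists and of the MHC and interferon list are not read as particular to them.

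The number and place of the fibroblasts were compared between ages over the sections. They made up 0.756% and 0.646% of the kept cells of Young 1 and Young 2, and 0.560% and 0.737% of those of Aged 1 and Aged 2 (0.701% ± 0.0778 against 0.648% ± 0.125, SD, n = 2 each), and the ages overlapped (exact permutation test, two-sided, p = 0.667, where 2 against 2 sections cannot go below 0.333). With all sections thinned to a single depth the shares were 0.575%, 0.502%, 0.560% and 0.569%, and the sign of the difference turned. With mixed cells left out they were 0.110%, 0.105%, 0.123% and 0.154%, with both aged sections above both young ones (exact p = 0.333). Per mm of outer border there were 15.3, 13.8, 10.95 and 14.9 fibroblasts (mean difference -1.64, exact p = 0.667), again with overlap. Counting border fibroblasts alone, there were 11.3, 10.8, 8.61 and 10.3 per mm, with both aged sections below both young ones (mean difference -1.62, exact p = 0.333, the smallest possible). This separation was not kept with another outline, as given in the last section. Aged 1, the shallowest section, was lowest in the share before thinning, mixed cells included, and in both counts per mm. The share near the border, given above, overlapped between ages as well (76.3% ± 3.39 young, 74.0% ± 6.50 aged, exact p = 0.667).

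Few genes differed with age in the fibroblasts. Of 351 genes tested over 2 sections an age, 3 passed an adjusted p under 0.05 in edgeR (0.855%), with 2 higher in Aged (0.570%) and 1 lower (0.285%), while 24 had an unadjusted p under 0.05 and the sections of the ages did not overlap for 128 (36.5%). Among border fibroblasts alone or inner fibroblasts alone no gene passed in edgeR (24 and 25 at an unadjusted p under 0.05). DESeq2 called the same number, with 2 higher and 1 lower. The count rests on single sections: it was 6 without Young replicate 1, 0 without Young replicate 2 and 1 without Aged replicate 1.

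Vwa1 was the gene that fell. Its level was 30.3 and 23.2 in Young 1 and 2, and 12.8 and 12.9 in Aged 1 and 2, from 502, 318, 107 and 184 transcripts, and fell by 1.02 ± 0.24 on the log2 scale (edgeR adjusted p = 0.0164). Both aged sections lay below both young ones at the border (14.8, 8.32, 5.47 and 6.63) and inside (68.9, 62.9, 37.0 and 24.2). In other kept cells Vwa1 stood at 8.56, 6.32, 4.15 and 7.30, where the ages overlapped.

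The genes that rose were at low levels and are known from other cells. Calb1, a calcium binding protein of neurons, stood at 1.51, 2.05, 6.09 and 5.53, from 25, 28, 51 and 79 transcripts in all (log2 change 1.74 ± 0.37, edgeR adjusted p = 0.00812). Other kept cells had it at 41.3, 61.1, 52.1 and 48.1, with the ages overlapping, and the summed neuronal markers in the fibroblasts were 65.9, 58.2, 62.3 and 81.1. Alas2, which starts heme synthesis in red blood cell precursors, stood at 4.05, 5.41, 17.4 and 8.47, from 67, 74, 146 and 121 transcripts (1.49 ± 0.32, edgeR adjusted p = 0.00812). Border fibroblasts had Alas2 at 3.99, 5.38, 21.6 and 11.1 and inner ones at 3.95, 5.77, 3.70 and 3.70, and the test of the change with age by position gave an edgeR adjusted p of 0.151. That test covered 321 genes, and none passed in edgeR (21 at an unadjusted p under 0.05) or in DESeq2 (8), whereas 6 were called without Aged replicate 1. Alas2 in other kept cells was at 1.67, 1.28, 0.986 and 1.155. The part of neuronal and blood transcripts in these changes was not tested.

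Values next in order of p did not pass. Upward these were Gad2 (2.17, 1.46, 3.35 and 5.74), the GABA-making enzyme, Ly6h (1.99, 1.46, 10.8 and 1.12), and Scg2 (1.99, 1.39, 2.63 and 5.25), a granin, with edgeR adjusted p of 0.112, 0.148 and 0.217. Ly6h was high in Aged 1 alone, and its sign turned without that section (log2 change -0.66). Downward they were Sst (15.9, 6.36, 5.62 and 5.60), the neuropeptide somatostatin, Nnat (92.3, 81.98, 48.6 and 65.6), Ccnd2 (36.1, 46.2, 23.8 and 29.3) and Pdgfrb (30.2, 21.6, 13.1 and 20.2), with edgeR adjusted p of 0.273 to 0.467.

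The 10 gene lists held 1 call with age, Vwa1 among the matrix genes. The other 9 lists had none, and their medians lay between -0.27 (growth factors, chemokines and receptors, 2 of 17 above 0) and 0.00, beside 0.00 over all genes tested. Of the fibroblast genes outside the rule, 4 of 12 were above 0, with a median of -0.15. Levels of the rule's genes overlapped between ages: Aldh1a2 stood at 163, 200, 192 and 180, Aox3 at 88.5, 69.4, 95.6 and 62.4, Mgp at 70.8, 71.7, 62.1 and 87.8, and Inmt at 29.7, 16.4, 19.2 and 26.8.

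**Figure D5:**
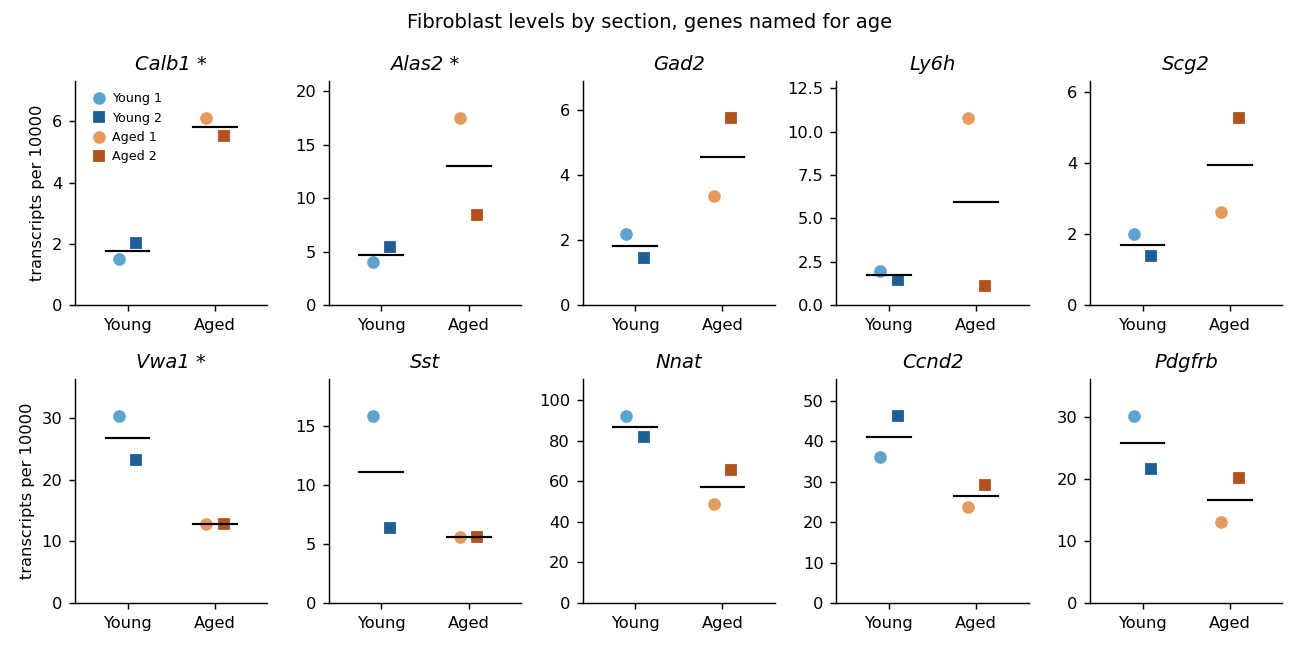
Fibroblast levels in transcripts per 10000 of the 5 genes in each direction named for their change with age; points are sections, lines the means of 2 sections, and an asterisk marks the 3 genes with an edgeR adjusted p under 0.05. Vwa1 is lower in both aged sections (12.8 and 12.9) than in both young ones (23.2 and 30.3), and Ly6h is high in Aged 1 alone.

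Set against 3055 smooth muscle cells of the same sections, 217 of 356 genes outside the rule differed (61.0%), with 97 higher in fibroblasts (27.2%) and 120 lower (33.7%); without TMM the split was 78 and 148. Gfap (343 to 460 against 58.1 to 83.0) and Fabp7 led the genes higher in fibroblasts, with log2 differences of 2.74 ± 0.08 and 2.599 ± 0.17, followed by Slc16a1 (33.1 to 51.4 against 7.92 to 9.68), Nnat and Slc7a11. Slc7a11 stood at 101, 124, 108 and 123 in smooth muscle cells, a log2 difference of 2.21 ± 0.09 (edgeR adjusted p = 1.73e-09). Lower were Rgs4 (7.61 to 13.4 against 152 to 202; -3.99 ± 0.13), a brake on G protein signals, Ano1 (-3.72 ± 0.12), a chloride channel of smooth muscle, Actn1 (-3.10 ± 0.13), an actin crosslinker, Crip1 and Tspan2. Of the 12 fibroblast genes 7 were higher in fibroblasts, Cxcl12 (1.39) and Igfbp5 (1.49) most after Slc7a11, and Vim, Tgfb3 and Pdgfrb lower. Astrocyte markers summed to 275 to 333 in smooth muscle cells.

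Set against 233 border macrophages, 143 of 312 genes differed (45.8%), with 66 higher in fibroblasts (21.2%) and 77 lower (24.7%). Stra6 (2.94 to 6.76 against 0 to 1.083), Nnat (48.6 to 92.3 against 13.7 to 21.7), Plxna2 (26.5 to 32.2 against 2.33 to 9.94), a plexin, Nbl1 (56.9 to 73.4 against 8.15 to 24.9), a BMP antagonist, and Slc7a11 (408 to 517 against 69.2 to 169) were higher in fibroblasts in all 4 sections. The genes lower by most were Csf1r (10.2 to 12.3 against 190 to 248; -4.16 ± 0.14, edgeR adjusted p = 5.84e-10), the receptor macrophages need to survive, and Cd84, Adgre1, P2ry13 and Pld4, all of the macrophage lineage. Of the 12 fibroblast genes, 9 were higher in fibroblasts and none lower. Of the 18 MHC and interferon genes tested, 11 were lower in fibroblasts and none higher.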

How the data were processed

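Coronal sections of 10 µm were hybridized with a MERFISH probe library and imaged on a Vizgen instrument; per the methods, the authors decoded transcripts with MERLIN 0.1.6 and segmented cells with the maker's software. The deposited tables give raw counts of transcripts per segmented cell, with no normalization, and each cell's volume as a signal in µm³ and centre, taken as µm. The authors filtered and normalized the cells after the stage deposited. Mean counts per section, also deposited, were not used. A transcript belongs to the outlined cell that holds it, so cells that touch or overlap within the section can take each other's counts.

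Fibroblasts were gated as described above. The members, gene lists and marker lists were chosen with earlier results of these data known. Counts were summed per section and class. The 9 genes of the rule were left out of totals and tests. Sums were tested with edgeR 4.0.16 (quasi-likelihood, TMM, filterByExpr, R 4.3.3) with Benjamini-Hochberg adjustment, by age, and with section as a block for position and for classes; DESeq2 1.42.0 was an alternative. Procedures were tested on simulated data. Shares were compared by exact tests over sections (Python 3.11.15). The outline was built from squares of 20 µm holding kept cells, closed with a radius of 60 µm, keeping the largest piece and holes of at least 0.05 mm². An outline from all segmented cells had been planned; objects segmented off the tissue stretched it, and the change was made after seeing the data. Genes named are the rule's genes and Slc7a11, the 10 with the largest fold over other cells, up to 8 a direction by position, 5 for smooth muscle cells and macrophages, up to 10 by age (or, under 5 calls, the 5 with the smallest p), and up to 4 a list; others were named after their values were seen. Some genes that met these rules or lists are not reported here. Gene positions come from RefSeq (GRCm38.p6).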

Additional observations from a re-analysis of the deposited data

How the results depend on the processing

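Depth and the number of sections limit these results: 2 sections an age, of unequal depth, and 78 to 133 inner fibroblasts a section. The share of cells near the border and the shares with smooth muscle or endothelial neighbours kept the direction of their mean under every setting run (at 50 µm the endothelial share turned in Aged 2), and leaving out each section in turn moved them between 68.1 and 71.6, 36.9 and 38.7, and 19.5 and 23.5 percentage points. The difference in share near the border was 54.7 points with the planned outline from all segmented cells, which was not run for the neighbour shares or for the change with age by position.

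Of the settings for genes changed with age (3 called), sections thinned to 1 depth gave 5. The stricter gate (at least 8 transcripts and 4%), mixed cells left out, cells with more astrocyte than rule transcripts left out, border fibroblasts only and inner fibroblasts only each gave 0, on fewer cells (17, 12, 14, 24 and 25 genes at an unadjusted p under 0.05). Leaving out a section gave 0 to 6. By itself, Alas2 had a log2 change of -0.43 in inner fibroblasts, Ly6h -0.66 to 2.70 without a section (lowest without Aged replicate 1), and Nnat 0.053 with mixed cells left out. Genes called by position (144) were 49 of 145 tested with the stricter gate, 15 of 94 with mixed cells left out, 85 of 212 with cells high in astrocyte transcripts left out, and 124 to 143 without a section. The 16 genes named by position kept their sign in all 167 values from settings in which they were tested, and 3 of these no longer passed. Not every named gene was tested in every setting, and the fewest genes were tested with mixed cells left out. The change with age by position called 2 genes without TMM and 0 to 6 without a section. Counts without a section were 192 to 207 against smooth muscle cells and 101 to 131 against macrophages. Without TMM the median gene shifted by -0.20 by position, -0.21 against smooth muscle cells, -0.16 against macrophages and -0.13 in the change with age by position.

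Comparisons of number and place between ages each turned sign under at least 1 setting, apart from border fibroblasts per mm. That count was tested with the main outline only. The aged minus young share of kept cells was 0.0310 points with mixed cells left out (no overlap, exact p = 0.333) and 0.0256 with sections thinned, and -0.141 to 0.0363 without a section. Fibroblasts per mm differed by -3.59 to 0.316 without a section (above 0 only without Aged replicate 1). Border fibroblasts per mm differed by -1.62 with the main outline (no overlap, exact permutation test p = 0.333). With a closing radius of 100 µm the ages overlapped. Young 2 then had 353 fibroblasts near a border of 32.8 mm, and Aged 2 had 366 near a border of 33.5 mm. The share near the border differed by 0.0488 points at 200 µm, 22.2 with the outline from all segmented cells (where Young 1 had 73.5% and Young 2 21.9%), and -6.93 to 2.26 without a section. The cause was not tested. With the replicate number as a block the count of genes changed with age was 3, as without it; samples with the same number had a correlation of deviations of -0.0881 over 307 genes, from 2 pairs, so the numbers were not taken to pair the sections.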
